A study of Mus musculus with 8 samples.

Results

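The aryl hydrocarbon receptor and its core targets were described here as 7 genes: Ahr, Ahrr, Arnt, Cyp1a1, Cyp1b1, Tiparp and Aldh3a1. They were taken as the rows of the deposited table of raw counts whose symbol equals one of these names, and all 7 were found among 25413 genes. The libraries came from 2 mouse lines labelled as mammary epithelium, which were cultured as spheroids, that is, as round clumps of cells. EpH4-AS is given as AS-transformed and malignant, and EpH4 is the wildtype line. Spheroids of each line received PM2.5, the fine fraction of particles in air, or nothing, and the 4 groups were EpH4-AS with PM2.5, EpH4-AS untreated, EpH4 with PM2.5 and EpH4 untreated. Each group had 2 libraries, all of polyadenylated RNA, and the labels do not say whether these came from separate cultures. A p value here therefore speaks only of the variation from library to library, part or all of which may be technical. Neither the dose and duration of PM2.5 nor whether EpH4-AS is a single clone is stated in the labels.

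AHR is a transcription factor of the bHLH-PAS family that waits in the cytosol, bound to the chaperone HSP90, until a planar aromatic ligand enters the cell. Polycyclic aromatic hydrocarbons, which combustion particles carry, are classical ligands. The bound receptor moves to the nucleus, pairs with ARNT and binds short DNA elements, called xenobiotic response elements, near its targets. Among the targets, Cyp1a1 and Cyp1b1 encode monooxygenases that oxidise aromatic hydrocarbons, Aldh3a1 encodes an aldehyde dehydrogenase, and Ahrr and Tiparp encode proteins that repress the receptor in a feedback loop.

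Total counts ran from 15393256 to 27765982 per library, lower in all 4 EpH4-AS libraries than in any EpH4 library. Levels are CPM, a gene's reads scaled to a common library size by TMM, and a ± beside a level is the SD of the 2 libraries in that group. Tests used edgeR's quasi-likelihood method, with Benjamini-Hochberg adjustment across 13716 tested genes, and a ± beside a log2 value is its standard error. All 7 members passed the filter on low counts, Cyp1a1 through EpH4 libraries alone, the line where it was higher. The labelled cell type was not borne out by general epithelial markers, while luminal mammary markers were mixed. The 10 general markers summed to 1.87 to 2.66 CPM in EpH4-AS and 1.33 to 1.73 CPM in EpH4, with Krt19 and Cldn4 at 0 counts in every library. The 7 luminal markers summed to 25.2 to 27.6 CPM in EpH4-AS and 60.2 to 71.0 CPM in EpH4. Nearly all of both sums was Gata3 and Esr1, at 13.17 and 12.03 CPM in untreated EpH4-AS and 55.74 and 7.299 CPM in untreated EpH4. Csn2 and Lalba, also luminal markers, had 0 counts in every library. The 9 fibroblast markers summed to 4090 to 5120 CPM in EpH4-AS and 4510 to 5060 CPM in EpH4. Most of the EpH4-AS sum was Vim, at 4285 ± 597 and 3653 ± 207 CPM with and without PM2.5, with Thy1 at 0 counts and Col1a1 at 0.111 and 0.0933 CPM. In EpH4, Dcn stood at 1078 ± 82.4 and 1124 ± 187 CPM and Vim at 2319 ± 100.1 and 2068 ± 29.5 CPM.

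Sequence just before the gene start was at hand for 5 members from RefSeq (GRCm38.p6), and those of the repressor and of 3 further targets are shown, because Ahrr was higher in EpH4-AS, Cyp1b1 and Cyp1a1 were lower there, and Tiparp was at similar levels. Each line gives the 250 bases before the start, 5′ to 3′ on the strand of the gene, and capitals mark the core of the xenobiotic response element, GCGTG, or its other-strand form CACGC.
Ahrr: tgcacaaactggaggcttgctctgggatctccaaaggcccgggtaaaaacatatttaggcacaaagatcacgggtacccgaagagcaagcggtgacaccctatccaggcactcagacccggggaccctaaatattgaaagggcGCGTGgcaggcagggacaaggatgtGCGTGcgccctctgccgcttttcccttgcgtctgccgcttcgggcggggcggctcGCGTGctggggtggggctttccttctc
Cyp1b1: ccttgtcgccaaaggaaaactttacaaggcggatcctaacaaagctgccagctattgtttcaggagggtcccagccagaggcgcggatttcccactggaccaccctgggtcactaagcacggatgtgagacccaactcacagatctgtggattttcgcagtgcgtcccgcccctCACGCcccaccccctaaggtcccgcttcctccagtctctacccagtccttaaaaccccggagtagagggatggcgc
Tiparp: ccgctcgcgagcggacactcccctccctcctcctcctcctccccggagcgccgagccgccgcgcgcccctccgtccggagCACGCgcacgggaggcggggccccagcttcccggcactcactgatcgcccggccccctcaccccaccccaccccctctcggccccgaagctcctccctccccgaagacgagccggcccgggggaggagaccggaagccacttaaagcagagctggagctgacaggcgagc
Cyp1a1: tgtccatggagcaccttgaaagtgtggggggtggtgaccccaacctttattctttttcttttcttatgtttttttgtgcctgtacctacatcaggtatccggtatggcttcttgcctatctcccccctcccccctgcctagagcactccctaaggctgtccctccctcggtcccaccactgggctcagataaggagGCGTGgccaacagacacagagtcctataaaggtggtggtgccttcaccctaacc
These windows lie at chr13:74292332-74292581 (minus strand), chr17:79715062-79715311 (minus strand), chr3:65528197-65528446 (plus strand) and chr9:57697363-57697612 (plus strand). The Ahrr window held 3 cores, which begin 107, 82 and 27 bases before the start, and each of the other 3 windows held 1. The fifth window, of Arnt, held 1 core as well. Of 32851 mouse windows of the same length, searched on both strands, 28.2% held a core and 2.77% held 3 or more. The core contains the pair CG, and windows were not matched for it. The pair occurred 17 times in the Ahrr window, 28 in Tiparp, 12 in Cyp1b1, 12 in Arnt and 3 in Cyp1a1, against a median of 6. The longer form TNGCGTG, which contains the core, occurred in 4.10% of windows and, of these 5, in that of Ahrr, beginning 29 bases before the start. The antioxidant response element, searched as TGACNNNGC, occurred in 10.2% of windows and, of these 5, in that of Arnt, with 2 matches. A match is a description of these letters and not of binding, and the enhancers of Cyp1a1 known to bind the receptor lie farther upstream than this window.

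With PM2.5, Ahr, Cyp1b1, Tiparp and Aldh3a1 rose in EpH4, by factors between 1.23 and 3.77, while Ahrr, Arnt and Cyp1a1 did not pass the test. In EpH4, 4 of 7 members rose and 0 fell, where 14.3% of all tested genes rose, 12.9% fell and 27.2% were called in either direction. In EpH4-AS, edgeR called 0 of 7 members, where it called 11.1% of all tested genes, 6.39% higher and 4.75% lower. At an unadjusted p under 0.05 the EpH4-AS count was 3 (Ahrr, Cyp1b1 and Aldh3a1), and the share of all genes at that level was not taken. The DESeq2 Wald test called 1 (Aldh3a1), where it called 1071 genes in all, and it gave Cyp1a1 and Cyp1b1 no adjusted p. By limma-trend, 0 were called with a pseudocount of 1 RPKM and 1 (Aldh3a1) with 0.1. The median log2 fold change of the 7 was 0.23 in EpH4-AS and 0.47 in EpH4, against 0.002 and 0.004 over all tested genes. The test of the difference between the lines called 1 member, Ahr, which had the lower effect in EpH4-AS. Of all tested genes 14.1% were called, 7.6% with a higher and 6.49% with a lower effect in EpH4-AS. Krt14, a basal keratin, moved the same way in EpH4, at 8.59 ± 0.404 CPM with PM2.5 and 3.17 ± 0.202 CPM untreated (SD, n = 2). The 7 basal markers summed to 1.69 to 2.12 CPM with PM2.5 and 2.47 to 3.25 CPM untreated in EpH4-AS, against 8.92 to 9.54 and 3.82 to 4.22 CPM in EpH4, and of the 2 tested Krt14 was called. In EpH4 that sum was nearly all Krt14, while Trp63 stood at 0.217 CPM with PM2.5 and 0.448 CPM untreated and Krt5 at 0, and in EpH4-AS it was mostly Acta2, at 1.26 CPM with PM2.5 and 2.27 CPM untreated. The part of these markers in the members' values was not tested. In bulk RNA, fewer cells of a type and less RNA per cell cannot be told apart.

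**Figure D1:**
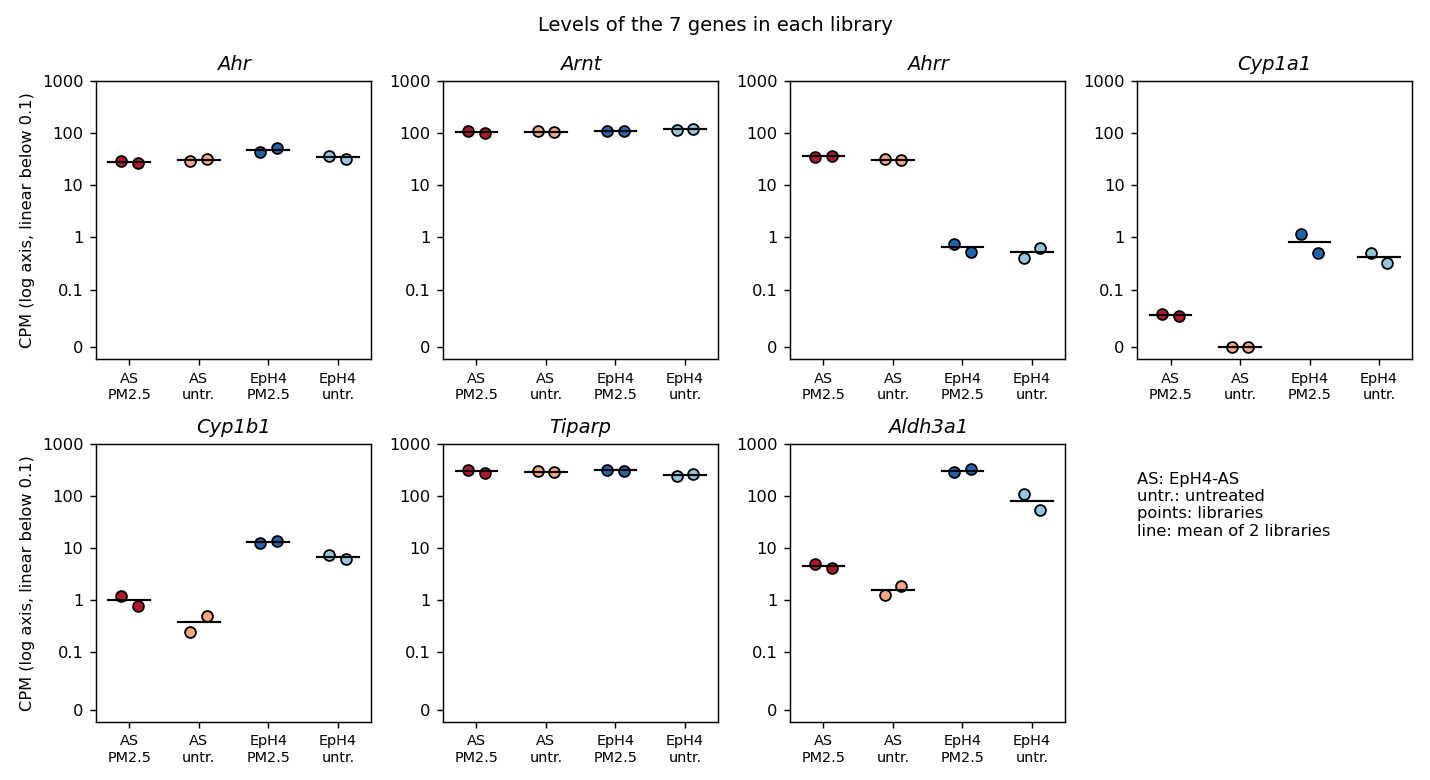
CPM of each of the 7 genes (y axis, logarithmic above 0.1 and linear below) in the 4 groups (x axis); points are libraries and the line is their mean. Ahrr lies near 30 CPM or above in EpH4-AS and below 1 CPM in EpH4, while Cyp1a1, Cyp1b1 and Aldh3a1 lie higher in EpH4.

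The receptor itself was expressed in both lines and rose with PM2.5 in EpH4. Ahr (ENSMUSG00000019256, chromosome 12, 35547973 to 35585037, minus strand, GRCm39) had 29.8 and 27.3 CPM in EpH4-AS with PM2.5, against 29.1 and 31.4 CPM untreated. In EpH4 it had 43.2 and 51.8 CPM with PM2.5, against 36.5 and 31.8 CPM untreated. The EpH4 libraries did not overlap, whereas those of EpH4-AS did. Ahr rose 1.39-fold in EpH4 (log2 0.47 ± 0.09, adjusted p = 0.00164), and in EpH4-AS its log2 fold change was -0.08 ± 0.10 (adjusted p = 0.675). The EpH4-AS effect minus the EpH4 effect was -0.56 ± 0.14 on the log2 scale (edgeR adjusted p = 0.0156). This difference lost its call when EpH4-AS PM2.5 replicate 2 (log2 -0.48, adjusted p = 0.0853), untreated replicate 1 (-0.60, 0.0514) or 2 (-0.48, 0.106) of that line, or EpH4 PM2.5 replicate 2 (-0.42, 0.0553) was left out. It also did so by limma-trend on RPKM with a pseudocount of 1 (-0.50, adjusted p = 0.0543) or 0.1 (-0.58, 0.0629), within a range of 7.21e-05 to 0.106 over 17 alternatives. Between the lines, Ahr was 1.66-fold lower in EpH4-AS under PM2.5 (adjusted p = 4.1e-06), and without PM2.5 its log2 difference was -0.18 ± 0.10 (adjusted p = 0.104).

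Arnt, the partner that Ahr shares with the hypoxia factors, was the steadiest of the 7. Arnt (ENSMUSG00000015522, chromosome 3, 95341699 to 95404551, plus strand) had 110.5 and 101 CPM in EpH4-AS with PM2.5 and 109 and 104 CPM untreated. In EpH4 it had 112 and 111 CPM with PM2.5 and 114 and 123 CPM untreated. All 8 libraries lay between 101 and 123 CPM. Neither PM2.5 contrast passed the test (log2 -0.01 ± 0.06 in EpH4-AS, adjusted p = 0.984, and -0.09 ± 0.06 in EpH4, adjusted p = 0.288). Untreated EpH4-AS was lower than untreated EpH4 by log2 -0.16 ± 0.06 (adjusted p = 0.0221), a call that did not hold on deposited RPKM, where the difference was 0.04 (adjusted p = 0.505), with library totals (-0.11, adjusted p = 0.0954), or without EpH4 untreated replicate 2 (-0.11, 0.141) or EpH4-AS untreated replicate 2 (-0.14, 0.122).

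Of the 2 feedback repressors, Ahrr separated the lines and Tiparp hardly did. Ahrr (ENSMUSG00000021575, chromosome 13, 74359237 to 74440450, minus strand) encodes a relative of the receptor that pairs with ARNT but does not activate transcription. It had 598 and 682 counts, or 34.9 and 37.0 CPM, in EpH4-AS with PM2.5, against 519 and 478 counts, or 31.3 and 30.2 CPM, untreated. In EpH4 it had 20 and 13 counts with PM2.5, 0.762 and 0.534 CPM, against 11 and 16 counts untreated, 0.400 and 0.636 CPM. Every EpH4-AS library was far above every EpH4 library, and within EpH4 the 2 groups overlapped. Ahrr was 54.7-fold higher in EpH4-AS under PM2.5 (log2 5.77 ± 0.15, adjusted p = 4.99e-14) and 59.3-fold higher without it (5.89 ± 0.16, adjusted p = 7.42e-14). The PM2.5 effect was log2 0.23 ± 0.09 in EpH4-AS (adjusted p = 0.127), with both exposed libraries above both untreated ones, and 0.34 ± 0.34 in EpH4 (adjusted p = 0.522). Fitted on the 4 EpH4-AS libraries alone, the EpH4-AS value passed (log2 0.22, adjusted p = 0.0238), within 0.0238 to 0.457 over 19 alternatives.

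Tiparp (ENSMUSG00000034640, chromosome 3, 65435831 to 65462939, plus strand) encodes a mono-ADP-ribosyltransferase that marks the receptor for degradation. It had 318 and 277 CPM in EpH4-AS with PM2.5, against 303 and 282 CPM untreated. In EpH4 it had 317 and 304.5 CPM with PM2.5, against 241 and 266 CPM untreated. Untreated EpH4 stood lowest, and exposed EpH4-AS overlapped with both untreated EpH4-AS and exposed EpH4. Tiparp rose 1.23-fold in EpH4 (log2 0.29 ± 0.07, adjusted p = 0.00615), and the EpH4-AS value was 0.02 ± 0.07 (adjusted p = 0.899). The difference between these effects was -0.27 ± 0.10 (adjusted p = 0.0814), and passed with library totals (-0.31, adjusted p = 0.0446), with no filter (-0.26, 0.0125) and without EpH4 untreated replicate 2 (-0.35, 0.0246), within 0.0125 to 0.369 over 17 alternatives. Untreated EpH4-AS was 1.16-fold above untreated EpH4 (adjusted p = 0.0116), a call lost without EpH4-AS untreated replicate 1 (adjusted p = 0.17) or EpH4 untreated replicate 1 (adjusted p = 0.0889).

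The monooxygenases were low in both lines and lower in EpH4-AS. Cyp1b1 (ENSMUSG00000024087, chromosome 17, 80008966 to 80022490, minus strand) had 21 and 14 counts in EpH4-AS with PM2.5, 1.23 and 0.760 CPM, against 4 and 8 counts untreated, 0.241 and 0.506 CPM. In EpH4 it had 326 and 337 counts with PM2.5, 12.4 and 13.9 CPM, against 203 and 152 counts untreated, 7.38 and 6.05 CPM. In each line both exposed libraries lay above both untreated ones, and the 4 groups did not overlap with each other. Cyp1b1 rose 1.95-fold in EpH4 (log2 0.96 ± 0.14, adjusted p = 0.000303). The EpH4-AS value rested on few reads, at log2 1.40 ± 0.48 (adjusted p = 0.0785). The ratio of the summed EpH4-AS counts, 35 against 12, was 2.61 per library total, with an exact 95% interval from 1.32 to 5.52 that covers counting error only. The EpH4-AS value passed with no filter (adjusted p = 0.023) and without EpH4 untreated replicate 1 (0.0491) or 2 (0.0494), within 0.023 to 0.416 over 18 alternatives. The difference between the effects was 0.43 ± 0.51 (adjusted p = 0.626), and on log2(RPKM + 1), by limma-trend, it had the opposite sign and passed (-0.43, adjusted p = 0.0297), within 0.0297 to 1.0 over 17 alternatives. On log2(RPKM + 1) the pseudocount exceeds the EpH4-AS levels of Cyp1b1, 0.158 and 0.0607 RPKM with and without PM2.5, and flattens their log2 change. EpH4-AS was 13.3-fold lower than EpH4 with PM2.5 (log2 -3.73 ± 0.22, adjusted p = 4.17e-10) and 17.9-fold lower untreated (-4.16 ± 0.31, adjusted p = 5.51e-09).

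Cyp1a1 (ENSMUSG00000032315, chromosome 9, 57595211 to 57611107, plus strand), the textbook readout of the receptor, was close to the limit of detection. It had 1 and 1 counts in EpH4-AS with PM2.5, against 0 and 0 untreated, and 30 and 12 counts in EpH4 with PM2.5, against 14 and 8 untreated. The EpH4 counts correspond to 1.14 and 0.493 CPM with PM2.5 and 0.509 and 0.318 CPM untreated. The EpH4 groups overlapped, since the second exposed library lay below the first untreated one, and the test was not passed (log2 0.98 ± 0.48, adjusted p = 0.156). The ratio of summed counts, 42 against 22, was 2.0 with an exact 95% interval from 1.17 to 3.51, for counting error alone. The fitted log2 change moved to 0.24 without exposed replicate 1 (adjusted p = 0.833) and to 1.44 without exposed replicate 2 (adjusted p = 0.0625). With PM2.5, EpH4-AS was 14.6-fold lower than EpH4 (exact 95% interval 3.79 to 124, 2 against 42 counts). Untreated EpH4-AS was at least 4.36-fold lower, taking 3 counts over the group as the floor, a level of 0.0945 CPM. That bound leaves out the counting error of the EpH4 reads. The exact 95% interval for 0 against 22 counts begins lower, at 3.25-fold. Because Cyp1a1 entered the test only through EpH4 libraries, the calls of these 2 line differences are no support for them, and the counts are given as a description. Cyp1a2, the neighbouring paralog across a gap of 4224 bases, had 0 counts in all EpH4-AS libraries and 2 and 3 counts in the exposed and untreated EpH4 groups.

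Aldh3a1 (ENSMUSG00000019102, chromosome 11, 61098363 to 61109247, plus strand), which oxidises aromatic and fatty aldehydes, showed both the largest PM2.5 response of the 7 in EpH4 and, among members with counts in every group, the largest deficit in EpH4-AS. It had 4.96 and 4.13 CPM in EpH4-AS with PM2.5 (85 and 76 counts), against 1.26 and 1.83 CPM untreated (21 and 29 counts). In EpH4 it had 291 and 321 CPM with PM2.5, against 108 and 54.2 CPM untreated. Exposed libraries lay above untreated ones in both lines, and the 2 untreated EpH4 libraries lay far apart from each other. Aldh3a1 rose 3.77-fold in EpH4 (log2 1.91 ± 0.19, adjusted p = 1.39e-05). In EpH4-AS its log2 change was 1.55 ± 0.63 (adjusted p = 0.138), and the difference between the effects was -0.36 ± 0.72 (adjusted p = 0.802). That difference rested on the untreated EpH4 libraries, being -0.94 without replicate 1 (adjusted p = 0.0166) and 0.04 without replicate 2 (adjusted p = 0.96), within 0.0166 to 1.0 over 17 alternatives. The spread that edgeR assigned to the gene over all 8 libraries was 7.90, against 0.75 to 1.33 for the other 6 members. Fitted on the 4 EpH4-AS libraries alone, the EpH4-AS change passed (adjusted p = 9.85e-05), as it did without EpH4 untreated replicate 1 (9.51e-05) or 2 (9.76e-05), within 8.17e-11 to 0.436 over 19 alternatives. EpH4-AS was 67.4-fold lower than EpH4 with PM2.5 (log2 -6.08 ± 0.29, adjusted p = 2.7e-11) and 52.4-fold lower untreated (-5.71 ± 0.38, adjusted p = 1.36e-09). Aldh3a2, the adjoining paralog 4995 bases away, stood at 21.6 ± 1.5 and 24.8 ± 1.32 CPM in EpH4-AS with and without PM2.5, and at 85.0 ± 0.176 and 79.7 ± 0.0435 CPM in EpH4 (SD, n = 2), with neither PM2.5 contrast called.

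**Figure D2:**
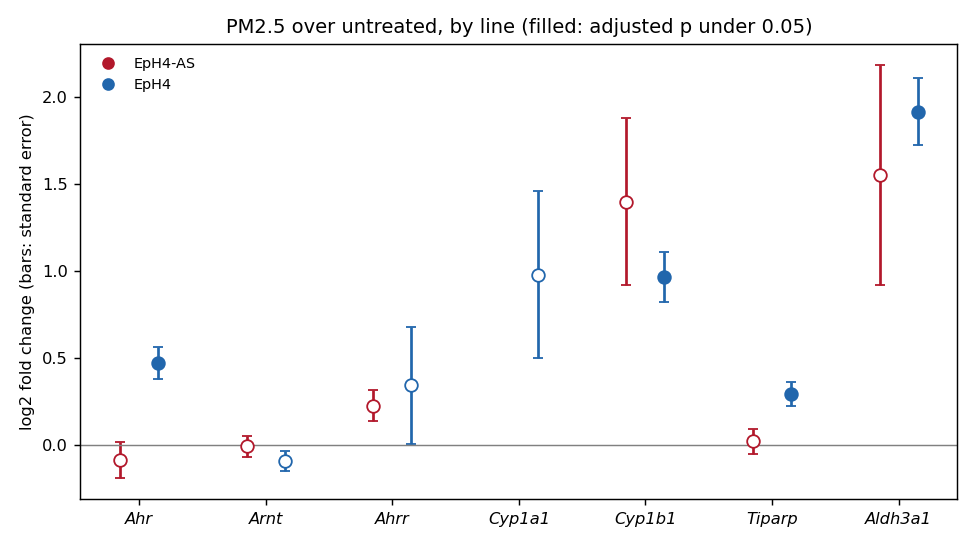
Log2 fold change of PM2.5 over untreated (y axis, bars are standard errors) for the 7 genes (x axis) in EpH4-AS and EpH4; filled points passed the test, and Cyp1a1 in EpH4-AS is not drawn because its untreated libraries have 0 counts. Ahr and Tiparp lie near 0 in EpH4-AS, while Cyp1b1 and Aldh3a1 lie above 0 in both lines with wide bars in EpH4-AS.

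Between the lines, most members differed, as did most genes. Under PM2.5, 1 member was higher in EpH4-AS (Ahrr) and 4 were lower (Ahr, Cyp1a1, Cyp1b1 and Aldh3a1), where 89% of tested genes were called, 43.5% higher and 45.5% lower. Untreated, 2 were higher (Ahrr and Tiparp) and 4 lower (Arnt, Cyp1a1, Cyp1b1 and Aldh3a1), where 89.2% were called, 43.6% higher and 45.7% lower. A share of members called is therefore close to the background, and the call of Cyp1a1 is no support, since it passed the filter only through EpH4 libraries. Ahrr, Cyp1b1 and Aldh3a1 differed by more than 10-fold in both comparisons, as did 22.2% of all tested genes under PM2.5 and 22.7% untreated, and among Ahr, Arnt and Tiparp the largest difference was that of Ahr under PM2.5 (log2 -0.73). Read depth, some markers of other cell types and the share of reads outside exons moved with the line. The 5 endothelial markers overlapped, at 0.253 to 1.09 CPM in EpH4-AS and 0.691 to 1.07 CPM in EpH4. The 7 macrophage and leukocyte markers summed to 39.9 to 43.2 CPM in EpH4-AS and 229 to 297 CPM in EpH4. Most of both sums was Cd68, with Ptprc at 0 to 2 counts per group. The 5 adipocyte markers summed to 952 to 1160 CPM in EpH4-AS and 141 to 168 CPM in EpH4. Most of both sums was Lpl, with Adipoq at 0 or 1 counts per group. Their part in the line differences was not tested. With the EpH4 libraries thinned to the depth of EpH4-AS, the counts of members called were the same in all 5 contrasts. Thinning acted on EpH4 counts alone, so it cannot tell whether PM2.5 calls in EpH4-AS were missed at its lower depth.

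**Figure D3:**
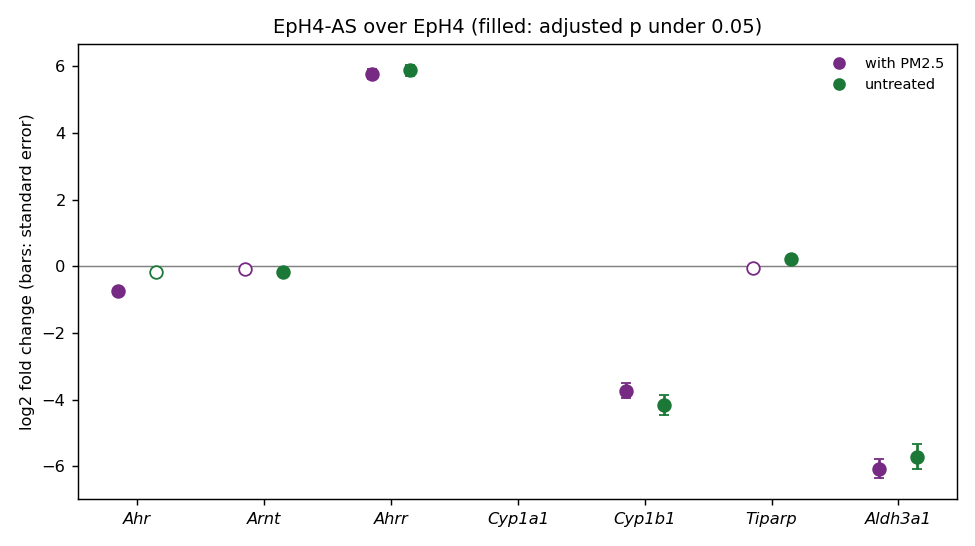
Log2 fold change of EpH4-AS over EpH4 (y axis, bars are standard errors) for the 7 genes (x axis), with PM2.5 and untreated; filled points passed the test and Cyp1a1 is not drawn because EpH4-AS has 0 to 2 counts per group. Ahrr lies near 6 above, Cyp1b1 near 4 below and Aldh3a1 near 6 below the line of no difference.

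Levels of different genes can be compared per length, on the deposited RPKM. In EpH4-AS, Tiparp led with 65.8 ± 6.13 RPKM with PM2.5 and 66.2 ± 2.70 untreated, followed by Arnt, Ahrr, Ahr, Aldh3a1, Cyp1b1 and Cyp1a1 in both groups. In EpH4 with PM2.5, Aldh3a1 led with 130.5 ± 10.4 RPKM before Tiparp with 61.4 ± 1.18, and in untreated EpH4 Tiparp led with 50.0 ± 2.66 before Aldh3a1 with 34.6 ± 16.6. Arnt, Ahr, Cyp1b1, Cyp1a1 and Ahrr followed in both EpH4 groups. Exposed EpH4 Aldh3a1 lay above 97.9% of tested genes, while Aldh3a1 in untreated EpH4-AS lay above 24.5%. The repressor and the receptor stood in opposite proportions in the 2 lines. The ratio of Ahrr to Ahr in RPKM was 1.37 and 1.58 in EpH4-AS with PM2.5 and 1.25 and 1.12 untreated. In EpH4 this ratio was 0.0206 and 0.0120 with PM2.5 and 0.0128 and 0.0234 untreated. The ratio of Ahr to Arnt was 0.234 ± 0.000712 and 0.248 ± 0.0224 in EpH4-AS with and without PM2.5, against 0.371 ± 0.0494 and 0.251 ± 0.0374 in EpH4 (SD, n = 2). Since a transcript's level is not a protein's, these ratios describe mRNA only.

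**Figure D4:**
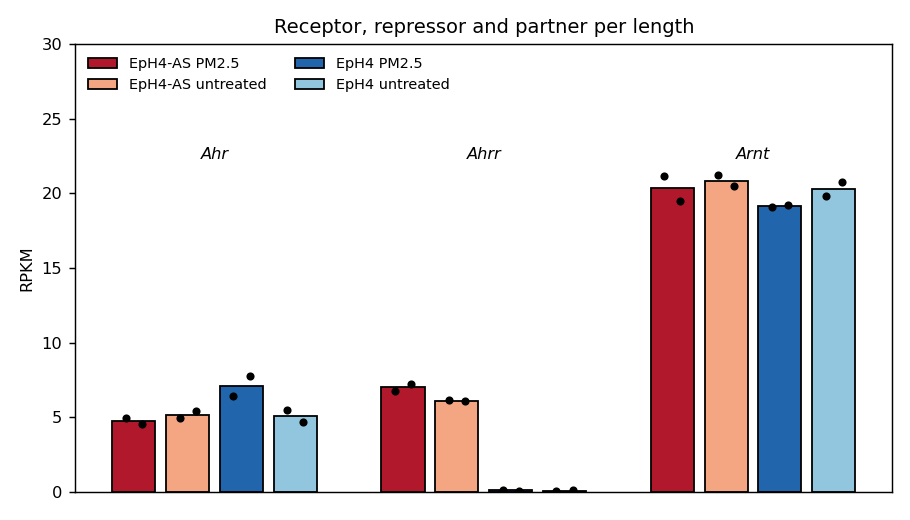
RPKM (y axis, from 0) of the receptor Ahr, the repressor Ahrr and the partner Arnt in the 4 groups; bars are means and points the 2 libraries. Arnt stands near 20 RPKM throughout, and Ahrr stands above Ahr in EpH4-AS and near 0 in EpH4.

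The authors' tables per library also give reads over the whole gene, from which the share outside exons was taken. Over all genes this share was 3.39% to 3.59% in EpH4-AS and 11.3% to 12.5% in EpH4. Arnt exceeded it in EpH4, with 23.7% to 25.1% of its reads outside exons with PM2.5 and 20.8% to 22.6% untreated, against 2.62% to 3.52% and 2.62% to 2.80% in EpH4-AS. Ahrr in EpH4-AS had 46 of 1326 reads outside exons with PM2.5 and 43 of 1040 untreated, and in EpH4 13 of 46 and 11 of 38. Aldh3a1 in EpH4 had 1034 and 237 such reads with and without PM2.5, so both kinds of read were more numerous with PM2.5. No other gene in the count table overlapped the span of any of the 7 members.

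Other genes of the pathway moved in part. Of 16 further reported receptor targets 12 were tested, and with PM2.5 3 rose and 0 fell in EpH4-AS, while 4 rose and 4 fell in EpH4. Of all tested genes, 6.39% rose and 4.75% fell in EpH4-AS, and 14.3% rose and 12.9% fell in EpH4. The median log2 change of the 12 targets was 0.13 in EpH4-AS and 0.06 in EpH4, against 0.002 and 0.004 over all tested genes. Nqo1, a quinone reductase that NRF2 induces as well, rose in both lines, to 10.4 ± 0.252 against 6.21 ± 0.608 CPM in EpH4-AS (adjusted p = 0.0286) and to 182 ± 1.39 against 71.7 ± 16.1 CPM in EpH4 (adjusted p = 1.37e-06). Slc7a5, an amino acid transporter, fell to 165 ± 17.3 CPM in exposed EpH4 against 254 ± 3.85 CPM untreated, and its effect differed between the lines (0.67 ± 0.09, adjusted p = 0.000322). Stc2, a secreted glycoprotein, rose by log2 0.41 ± 0.06 in EpH4 (adjusted p = 0.00042) and Ugt1a6a, a glucuronosyltransferase, fell by 0.41 ± 0.07 on the log2 scale there (adjusted p = 0.0012), with reads that may be shared among the Ugt1a genes, which have common exons. The other called targets in EpH4-AS, Ereg (log2 0.73, adjusted p = 0.00202) and Socs2 (0.44, adjusted p = 0.00922), are named after their values were seen.

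Hsp90ab1, the chaperone that holds the receptor, rose by log2 0.21 ± 0.06 in EpH4-AS (adjusted p = 0.0339) and 0.32 ± 0.06 in EpH4 (adjusted p = 0.00102). The counts of the next lists stand against 6.39% of all tested genes that rose and 4.75% that fell in EpH4-AS, and 14.3% and 12.9% in EpH4. Of 10 coregulators 0 rose and 3 fell in EpH4-AS, and 1 rose and 2 fell in EpH4. Crebbp, an acetyltransferase, fell by 0.27 in EpH4 (adjusted p = 0.00423), and Ncoa3, a steroid receptor coactivator, fell by 0.26 in EpH4-AS (adjusted p = 0.00481), both on the log2 scale. Of the 10 tested relatives in the bHLH-PAS family, 0 rose and 1 fell in EpH4-AS, and 4 rose and 0 fell in EpH4. Arnt2, the second partner of the receptor, rose in EpH4 to 17.4 ± 0.440 CPM, against 8.96 ± 2.09 CPM untreated (log2 0.95 ± 0.14, adjusted p = 0.000273), and stood at 1.04 ± 0.0931 and 0.581 ± 0.285 CPM in EpH4-AS (adjusted p = 0.29). Hif1a, the hypoxia factor that competes for ARNT, fell by 0.17 in EpH4-AS (adjusted p = 0.0454) and rose by 0.22 in EpH4 (adjusted p = 0.00332) on the log2 scale, with a difference of -0.39 ± 0.07 (adjusted p = 0.00204). Npas4 rose in EpH4 as well (log2 1.14 ± 0.20, adjusted p = 0.000935). Of 8 genes that make or clear tryptophan-derived ligands 4 were tested, with 0 called in EpH4-AS (0 at an unadjusted p under 0.05) and 1, Ido2, higher in EpH4. Of 11 other aldehyde dehydrogenases 6 were tested, and 1 rose and 0 fell in EpH4-AS, while 1 rose (Aldh3b1, log2 0.48, adjusted p = 0.0112) and 1 fell in EpH4. Aldh1l2, a mitochondrial enzyme of folate metabolism, was that gene in EpH4 (adjusted p = 0.0147), and it rose in EpH4-AS (log2 0.85, adjusted p = 0.00258). For comparison, 6 of 7 NRF2 targets, Nqo1 among them, rose in each line, with medians of 0.74 in EpH4-AS and 0.97 in EpH4.

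**Figure D5:**
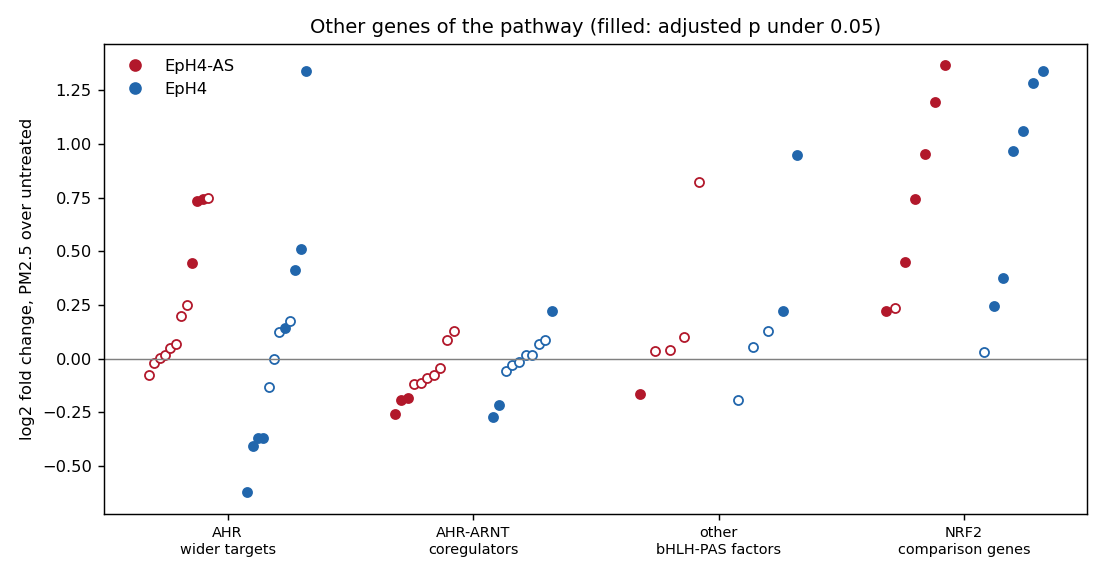
Log2 fold change of PM2.5 over untreated (y axis) for genes of 4 pathway lists (x axis) with more than 3 counts in every group, in EpH4-AS (left of each pair) and EpH4; filled points passed the test. The NRF2 genes lie at or above 0 in both lines, while the further receptor targets lie on both sides of 0 in EpH4.

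The genes whose profile over the 8 libraries was most like that of each member were found by Pearson's r of log2 CPM among 10209 candidates. The 8 libraries share 2 lines and 2 treatments, so r mostly follows the line where a member differs between them. Aldh3a1 was most like Champ1 (r = 0.9986) and Nqo1 (0.9984). Ahrr was most like Rnf113a1 (0.9996) and Adam23 (0.9996), of which Adam23 had 149 ± 2.66 and 113 ± 0.573 CPM in EpH4-AS with and without PM2.5 and less than 0.1 CPM in EpH4. Cyp1b1 was most like Adam9 (0.9949) and Ptgir (0.9939), the prostacyclin receptor, and Cyp1a1 most like Impa1 (0.9911) and Kif24 (0.9881). The Cyp1a1 profile rests on few reads and lies near the limit of detection in EpH4-AS, so its likeness is weakly based. Ahr was most like Maml3 (0.9905) and Fst (0.9869), the activin antagonist follistatin, which stood at 10.1 ± 1.27 and 12 ± 0.112 CPM in EpH4-AS with and without PM2.5, against 28.3 ± 3.98 and 15.6 ± 2.12 CPM in EpH4 (SD, n = 2). Tiparp and Arnt had the least alike neighbours, Lmf1 (0.9478) and Sec24a (0.9152) for Tiparp, and Pggt1b (0.9599) and Atxn7l1 (0.9460) for Arnt.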

How the data were processed

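Gene expression was measured by RNA sequencing of polyadenylated RNA in 8 spheroid libraries, made with a stranded kit per the labels' protocols. The authors deposited unscaled read counts for each gene, on GRCm39 per the submitters' processing notes, and RPKM values were deposited by the authors as scaled to exon length and library reads, per the file headers. Aligner, counter and annotation: not given in the sources used here. The filter (filterByExpr) kept 13716 of 25413 genes. A model of 4 groups was fitted to TMM-scaled counts (edgeR 4.0.16, R 4.3.3) with 4 residual degrees of freedom and two-sided tests, at an adjusted p of 0.05. Standard errors were obtained by dividing each absolute log2 fold change by the root of its F. Groups came from the sample titles.

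Alternatives were DESeq2 1.42.0 size factors and Wald test, library totals, no filter, 1 CPM in 2 libraries, a replicate block, 2 groups alone, limma 3.58.1 trend on log2(RPKM + 1) and log2(RPKM + 0.1), and each library left out, where a lone library is assumed to vary like the other groups. A crossed block and thinned EpH4 libraries were added after seeing the data. Tested on simulated data, the fit recovered most changed genes but made more false calls than its threshold allows, so adjusted p values near 0.05 are weak. The members and lists were chosen with earlier results of these data known. Beside the members, the naming rule took the 2 genes most like each member in profile, at 5 CPM or more, and up to 4 genes per list with the smallest adjusted p. Replicates of a group differed by more than counting noise, and more so in EpH4. The chi-square per degree of freedom was 2.93 and 1.47 in EpH4-AS with and without PM2.5, and 8.47 and 9.29 in EpH4. The main fit gave each gene a spread shared by both lines. The list of the cytosolic receptor complex is not reported here as a whole. Intervals and floors cover counting error only.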

Additional observations from a re-analysis of the deposited data

Results flagged for a closer look

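The PM2.5 effect on Ahr differed between the lines by the test of the difference itself, at -0.56 on the log2 scale (EpH4-AS effect minus EpH4 effect, edgeR adjusted p = 0.0156). Its log2 effect was -0.08 in EpH4-AS and 0.47 in EpH4. It was 1 of 7 members, where 14.1% of all tested genes were called. The call was lost in 6 of 17 alternatives, with adjusted p up to 0.106: without any 1 of 4 libraries, and by limma-trend on RPKM with either pseudocount.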

How the results depend on the processing

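The count of members called was 4 for PM2.5 in EpH4 under every alternative run, 5 or 6 for untreated EpH4-AS over EpH4 apart from 7 with no filter, and 5 under PM2.5 apart from 4 at 1 CPM in 2 libraries, where Cyp1a1 was not tested. For PM2.5 in EpH4-AS, with 0 called, it was 1 by the DESeq2 Wald test, 1 by limma-trend on log2(RPKM + 0.1), 2 with no filter, 2 with its 2 groups alone, 1 with a crossed replicate block, and 0 to 2 without one library. For the difference between lines, with 1 called, it was 2 with library totals, 2 with no filter, 0 by limma-trend on log2(RPKM + 0.1), and 0 to 2 without one library. The number of all genes called for PM2.5 in EpH4-AS moved too. It was 1071 by the DESeq2 Wald test, 1986 with no filter and 2925 with 2 groups alone, against 1529 in the main fit. For the difference it was 1938 with library totals and 2440 with no filter, against 1932. With no filter the fit set the prior degrees of freedom to infinity, so that all genes took their spread from the trend. The spread of Aldh3a1 then fell to 0.818, against 7.90 with the filter. On RPKM 4 of 7 members kept the order of their group means. On log2(RPKM + 1) the difference between lines for Cyp1b1 reversed to -0.43 and passed (adjusted p = 0.0297) in place of Ahr. There the pseudocount of 1 exceeds the EpH4-AS levels of Cyp1b1, 0.158 and 0.0607 RPKM with and without PM2.5, and flattens their log2 change. The untreated line difference of Arnt reversed to 0.04 with a pseudocount of 1 and to 0.04 with 0.1, and the cause was not tested. On log2(RPKM + 0.1) the median of all genes in that contrast was 0.14, against -0.05 on CPM, and with no filter -0.16. Over all genes, the count called ran from 2154 to 4309 for PM2.5 in EpH4 (3726 reported), from 363 to 2925 in EpH4-AS (1529) and from 878 to 2633 for the difference (1932). The replicate block left the counts of members at 4, 0, 1, 6 and 5. The deviations of same-numbered libraries correlated at -0.101 in EpH4 and 0.065 in EpH4-AS. With 2 libraries per group, these correlations cannot decide whether same-numbered libraries were paired. Members below the filter had no alternative, since all 7 passed. Cyp1a1, and Cyp1b1 in EpH4-AS, rest on few reads.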
